A study of Mus musculus with 16 samples.

Results

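The clustered protocadherins are the 58 genes of the 56941 in the deposited gene table whose symbol belongs to the alpha (14 genes), beta (22 genes) or gamma (22 genes) protocadherin cluster. The rule that picks them reads the symbol and no measured value. All 58 lie on the plus strand of mouse chromosome 18 between positions 37063237 and 37974926 of GRCm39. The alpha cluster spans 37063237 to 37320714, the beta cluster 37397991 to 37657532 and the gamma cluster 37794846 to 37974926.

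RNA from the chromatin-associated fraction was sequenced after depletion of rRNA in E14TG2a, a line of mouse embryonic stem cells, kept in LIF (1000 U per ml), the MEK inhibitor PD0325901 (1 µM) and the GSK3 inhibitor CHIR99021 (3 µM). By its labels every group overexpresses a histone demethylase, and no group without a construct was analysed here. The 8 groups were full-length KDM4A, KDM4B, KDM6A and KDM6B and the same proteins without their intrinsically disordered region (IDR), each with 2 libraries. KDM4A and KDM4B remove methyl groups from H3K9 and H3K36, and KDM6A and KDM6B from H3K27. The sample titles write the deletion as del-cIDR and the genotype labels as del-IDR, and the removed residues, the species of the constructs and their promoter are not given in the sources used here. Whether paired libraries stem from different cultures is not in the labels, and p-values therefore measure only the spread between these libraries, which may be technical.

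Clustered protocadherins are cadherin-like adhesion proteins at the cell surface, best known in neurons, where each cell uses a few of the variable genes and thereby gains a surface identity. In the alpha and gamma clusters each variable exon has its own promoter and is spliced to constant exons shared by the whole cluster, whereas beta genes are single large exons without shared ones. Promoter choice in neurons depends on CTCF and cohesin and on the loss of DNA methylation, and SMCHD1 and SETDB1 are known to hold the clusters silent. The C-type genes (Pcdhac1, Pcdhac2, Pcdhgc3, Pcdhgc4 and Pcdhgc5) sit at the downstream ends of their clusters and are used more uniformly among neurons than the others.

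Libraries held 32739117 to 54890756 reads on genes, and levels are given as CPM (read counts scaled to library size) after TMM scaling. ERCC spike-in RNAs took 0.578% to 1.53% of a library's reads. The share was 1.05% to 1.53% with IDR-deleted KDM4A and in both KDM6B groups, and 0.578% to 0.806% in the other groups. All 10 naive pluripotency markers passed the filter on low counts, and their summed level was 1935 to 2661 CPM over the 16 libraries. The summed level of 14 neuron markers was 55.4 to 126 CPM, and Dcx, one of them, averaged 0.0189 CPM. Of the genes of the overexpressed proteins, Kdm6a stood at 433 ± 11.3 CPM with full-length and 425 ± 14.1 CPM with IDR-deleted KDM6A (SD, n = 2) against group means of 95.7 to 151 CPM elsewhere. Kdm4a reached 211 and 296 CPM in the full-length and IDR-deleted KDM4A groups against 171 to 262 CPM elsewhere, Kdm4b 95.5 and 88.9 CPM against 76.4 to 99.2, and Kdm6b 81.6 and 94.7 CPM against 69.6 to 76.1. These counts do not show overexpression of Kdm4a or Kdm4b, which were as high or higher in the KDM6B groups as with full-length KDM4A or with KDM4B. Nor do they clearly show it for Kdm6b, at 81.6 ± 5.05 CPM with full-length KDM6B and 76.1 ± 7.49 CPM with IDR-deleted KDM4A. Full-length and IDR-deleted KDM4A, KDM4B and KDM6B therefore stand throughout for the libraries labelled so. Scaling by the ERCC RNAs instead of TMM moved the median log2 change of all genes to -0.70 for KDM4A, -0.18 for KDM4B, -0.21 for KDM6A and -0.38 for KDM6B, and the share of rises among called genes from 48.7% to 7.61%, 51.5% to 25.1%, 49.0% to 5.84% and 48.0% to 4.74%.

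Almost all protocadherin reads fell on the gamma cluster, which held 98.4% of the family's reads, against 0.809% for alpha and 0.769% for beta. Per kb of exon that no other gene shares, tested gamma genes stood at 1.97 to 11.3 CPM per kb (median 4.85), tested alpha genes at 0.0445 to 0.398 and tested beta genes at 0.0156 to 0.0797. After the filter on low counts, 36 of the 58 genes could be tested: 6 alpha, 9 beta and 21 gamma. The other 22 had 0 to 76 reads over all 16 libraries. Pcdhga10, the gamma gene that was not tested, was listed at 0 in every library. None of its 4732 exon bases is its own: 3241 lie in exons of genes outside the family and the rest in exons of other members, where a read is given to no gene. The symbol Pcdha11 belongs to 2 entries of the table, ENSMUSG00000007440 (tested) and ENSMUSG00000102206 (24 reads, not tested).

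**Figure D1:**
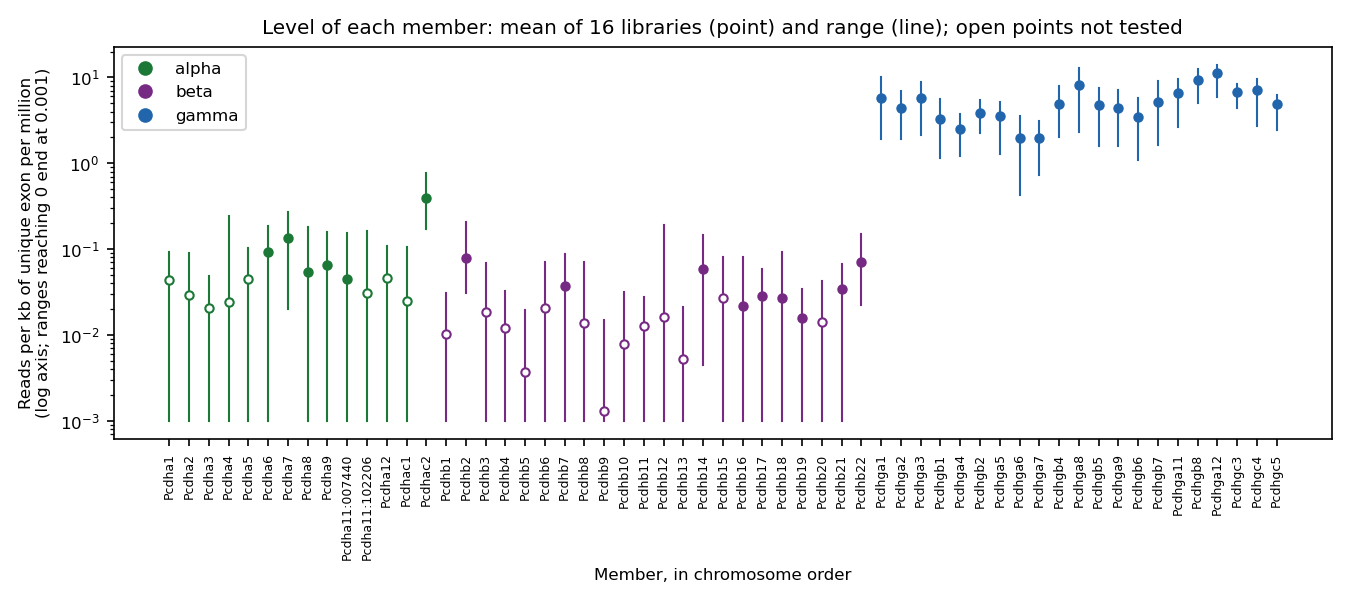
Level of each member in chromosome order on a log axis, in CPM per kb of unshared exon; points are means of 16 libraries, lines run from the lowest to the highest library, and open points were not tested. Gamma genes sit between 1.97 and 11.3, above every alpha and beta gene.

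Reads on the constant exons, which the alpha or gamma genes share, were not assigned to any gene, so these levels come from the variable exons. The library kit keeps strand, but the counting ignored it, and a primary transcript that starts at an upstream gamma gene runs through the variable exons downstream of it. Values of gamma genes are therefore not independent of each other, and a cluster's count is a description of a locus more than of separate genes.

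The summed gamma level differed between groups by far more than between the libraries of a group. It was 436 and 432 CPM with full-length KDM4B, 407 and 413 CPM with full-length KDM4A, 388 and 390 CPM with full-length KDM6A, and 400 and 388 CPM with IDR-deleted KDM6A. It was 326 in both libraries with IDR-deleted KDM4B, 211 in both with IDR-deleted KDM6B, 202 and 198 CPM with full-length KDM6B, and 142 and 143 CPM with IDR-deleted KDM4A. In this order only the KDM6A groups overlapped; full-length KDM4A and IDR-deleted KDM6A lay closer together than the libraries of the latter. All 21 tested gamma genes had their 3 lowest group means in the IDR-deleted KDM4A group and the KDM6B groups, and 18 of 21 were lowest with IDR-deleted KDM4A. The same groups had the highest shares of ERCC reads, and what that difference stems from was not tested. In a test of any difference among the 8 groups, 26 of the 36 tested members passed (edgeR quasi-likelihood test, Benjamini-Hochberg adjusted p under 0.05), against 75.8% of all 31057 genes tested. These were all 21 gamma genes, Pcdhac2, Pcdhb14, Pcdhb16, Pcdhb17 and Pcdhb18. In such bulk samples, fewer cells that use a gene and less RNA per cell cannot be told apart.

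**Figure D2:**
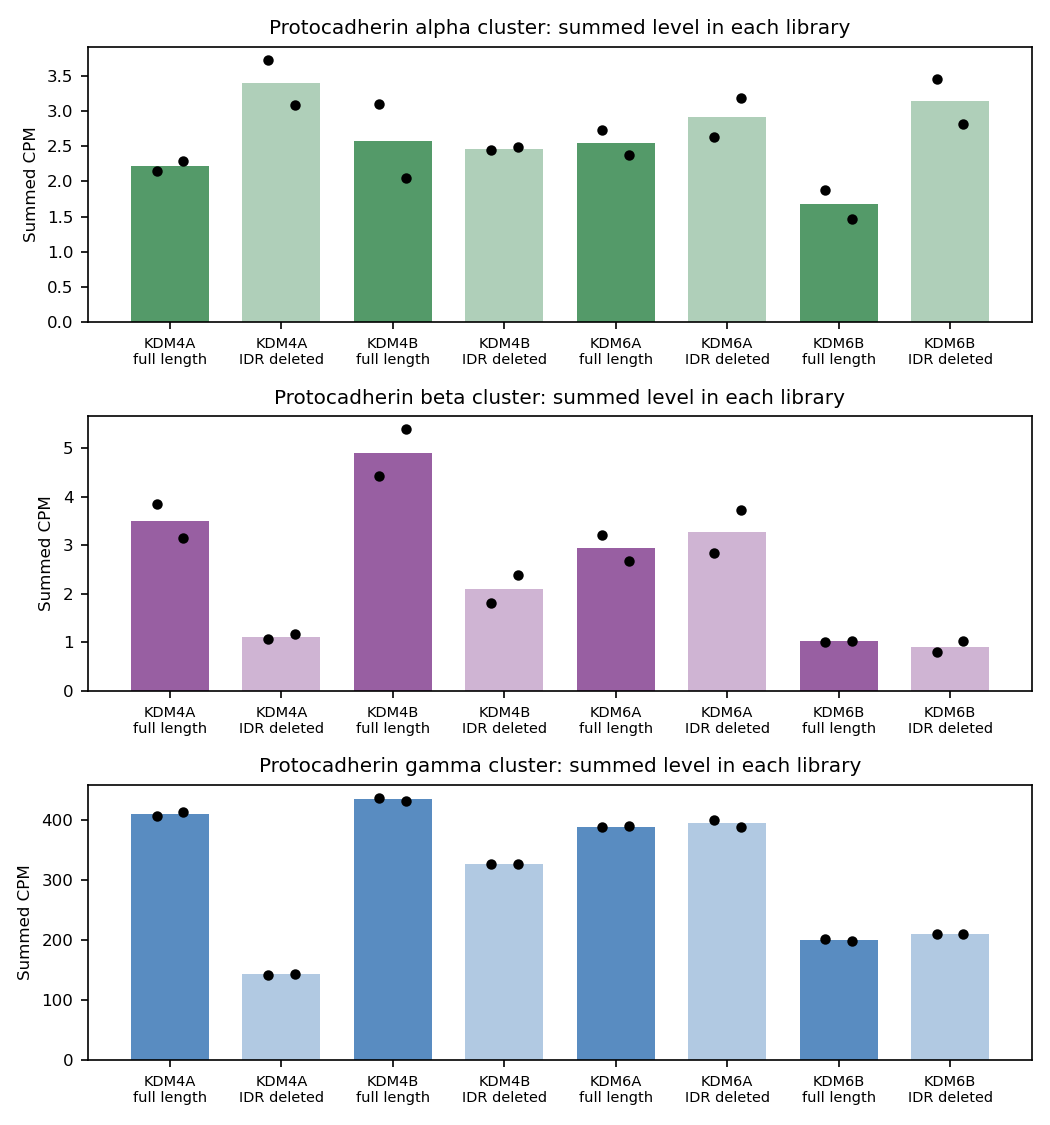
Summed CPM of the alpha, beta and gamma clusters (vertical axes start at 0) in the 8 groups; bars are means of 2 libraries and points are the libraries. The gamma cluster is near 143 CPM with IDR-deleted KDM4A and near 410 CPM with full-length KDM4A, and its libraries lie close together in every group.

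RNA from the whole gamma cluster was lower in the libraries labelled as IDR-deleted KDM4A than in those labelled full-length. The summed gamma level was 410 ± 4.62 CPM with the full-length protein and 143 ± 0.429 CPM with the deleted one (SD, n = 2), a log2 difference of -1.52. All 21 tested gamma genes fell, with log2 fold changes from -2.25 to -0.75 and a median of -1.71, while the median over all tested genes was -0.05. In all, 22 members fell and 1 rose, where 50.5% of all genes tested changed, 25.9% fell and 24.6% rose. In all 21 gamma genes both deleted libraries lay below both full-length ones, a separation in this direction that 38.7% of all tested genes showed (73.2% in either direction).

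Pcdhgb5, a B-type gamma gene, stood at 33.9 and 32.8 CPM with full-length KDM4A and at 7.25 and 8.08 CPM with the deleted protein. It fell by 2.12 ± 0.09 on the log2 scale (SE, adjusted p 1.35e-21). Among the genes with the smallest p were also the A-type genes Pcdhga8 (26.7 ± 0.30 to 5.62 ± 1.11 CPM, log2 -2.25), Pcdhga1, the first gene of the cluster (22.9 ± 2.40 to 5.58 ± 0.10 CPM, log2 -2.04), and Pcdhga9 (23.7 ± 1.40 to 6.05 ± 0.67 CPM, log2 -1.97). In each of these 4 both deleted libraries lay far below both full-length ones.

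Pcdhga12, the most abundant member and the last of the A and B types, changed less. It stood at 53.9 and 57.9 CPM with full-length KDM4A and at 26.0 and 24.7 CPM with the deleted protein, a fall of 1.14 ± 0.06 on the log2 scale (adjusted p 2.06e-18). Its neighbour Pcdhgb8 stood at 28.3 and 25.3 against 13.02 and 12.7 CPM (log2 -1.06 ± 0.08). The share of gamma RNA that came from Pcdhga12 was 13.6% with the full-length and 17.8% with the deleted protein.

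The C-type gamma genes fell as well. Pcdhgc3 stood at 14.1 and 13.8 CPM against 8.53 and 8.08 CPM (log2 -0.75 ± 0.12), the smallest fall of the cluster. Pcdhgc4 stood at 28.1 and 26.8 against 9.38 and 11.5 CPM (log2 -1.40 ± 0.09), and Pcdhgc5 at 24.4 and 24.7 against 12.5 and 11.3 CPM (log2 -1.05 ± 0.09). Full-length and deleted libraries did not overlap in any of these.

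The alpha and beta clusters carried few reads. Pcdhac2, the C-type gene at the end of the alpha cluster, rose from 0.652 and 0.668 CPM to 2.33 and 1.92 CPM (log2 1.68 ± 0.33, adjusted p 4.76e-05), the one member to rise. The summed alpha level was 2.21 ± 0.10 and 3.41 ± 0.46 CPM, a log2 difference of 0.62 that became -0.28 without Pcdhac2 and -0.035 with scaling by the ERCC RNAs. Pcdha7, Pcdha6 and Pcdha9, alpha genes of 116 to 201 reads in all, did not pass the test. Pcdha7 stood at 0.373 and 0.162 CPM with full-length KDM4A and at 0.349 and 0.206 CPM with the deleted protein, and those libraries overlapped. Pcdha6 stood at 0.140 and 0.121 against 0.349 and 0.206 CPM, and Pcdha9 at 0.279 and 0.324 against 0.175 and 0 CPM.

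Summed beta RNA was 3.50 ± 0.49 CPM with full-length KDM4A and 1.12 ± 0.06 CPM with the deleted protein. Of 9 tested beta genes 1 passed the test: Pcdhb14 had 88 reads in the full-length and 4 reads in the deleted libraries, or 0.838 and 1.05 against 0.0582 and 0.0685 CPM (log2 -3.85 ± 0.71, adjusted p 1.60e-05). For 6 of the 9, both deleted libraries lay below both full-length ones, as in 38.7% of all tested genes. Beta genes this low could pass the filter through the groups where they are high, so this count is no separate evidence of a fall. Pcdhb16, for one, had 18 reads in full-length KDM4A library 1, 15 in full-length KDM4B library 2 and at most 6 elsewhere. Pcdhb22 stood at 0.932 and 0.243 against 0.408 and 0.137 CPM and Pcdhb2 at 0.279 and 0.243 against 0.175 and 0.343 CPM, and in both the groups overlapped.

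**Figure D3:**
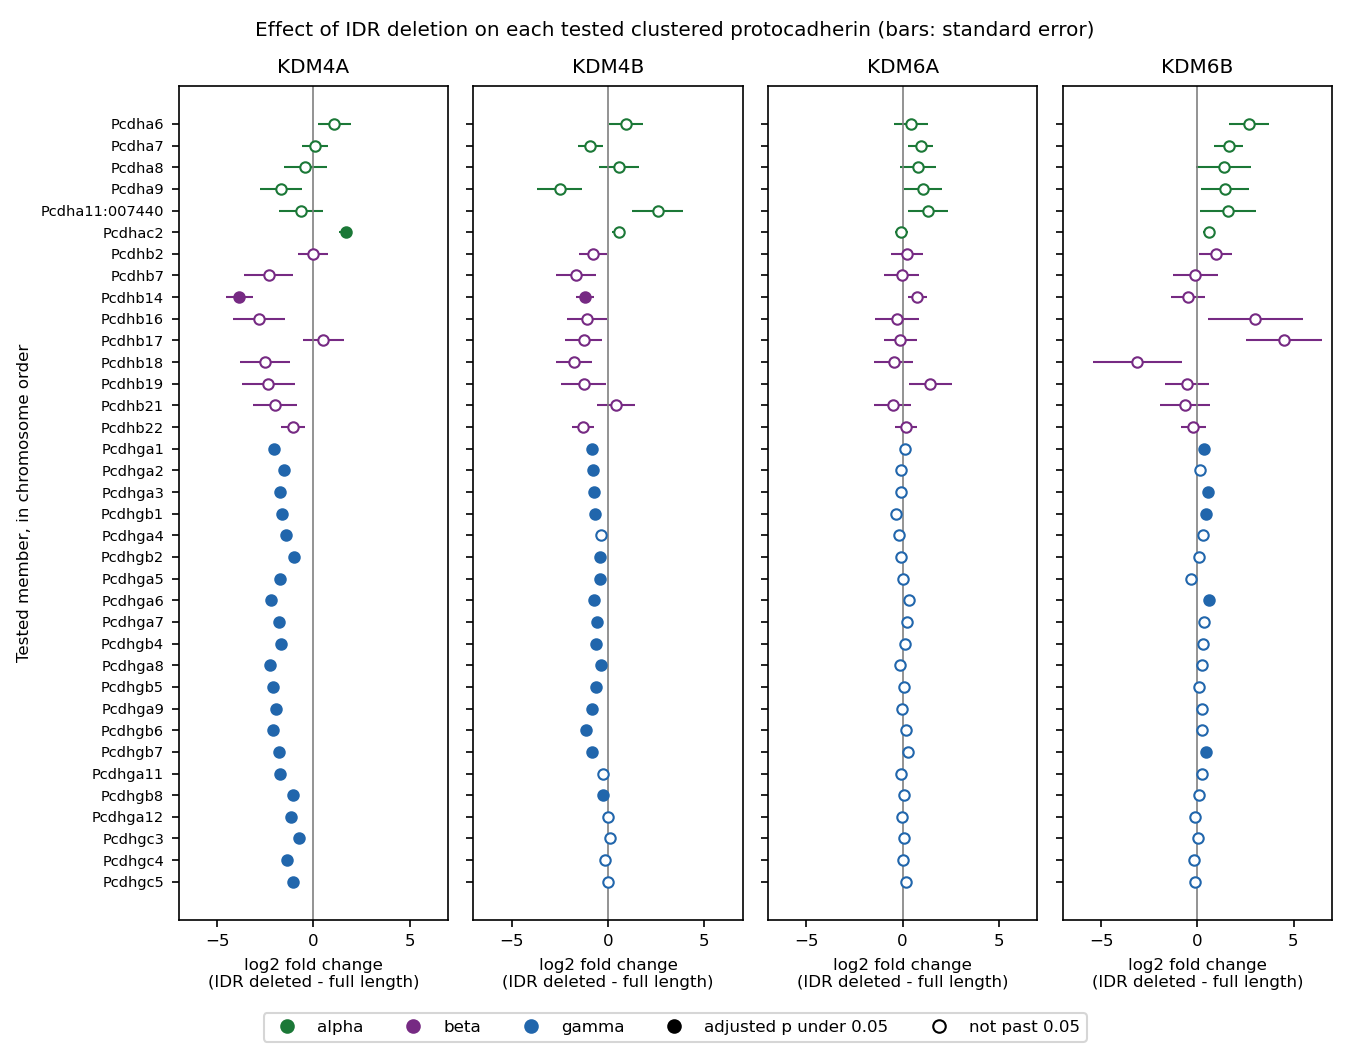
Log2 fold change (IDR-deleted minus full-length) of the 36 tested members in chromosome order for each demethylase, with standard errors; filled points have an adjusted p under 0.05. All 21 gamma genes are filled and left of 0 for KDM4A, 15 for KDM4B and none for KDM6A. The 5 filled points right of 0 for KDM6B are not called under ERCC scaling, where 8 members fall and the median of all genes is -0.38.

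In the libraries labelled as IDR-deleted KDM4B, RNA from most A- and B-type gamma genes was lower than in those labelled full-length, while the C types did not pass the test. Here 16 members fell and none rose, where 36.2% of all tested genes changed and 17.6% fell. Of the 21 gamma genes 15 fell (median log2 -0.55, all genes 0.01), and the summed gamma level was 434 ± 2.96 CPM with the full-length and 326 ± 0.358 CPM with the deleted protein. Pcdhgb6 fell the most of the gamma genes (14.6 ± 0.51 to 6.60 ± 0.29 CPM, log2 -1.15 ± 0.12, adjusted p 3.72e-10). Pcdhga1 (log2 -0.84), Pcdhga9 (-0.83), Pcdhga2 (-0.77) and Pcdhgb5 (-0.65) had the next smallest p. Pcdhgb5, for one, stood at 34.98 and 34.3 CPM with the full-length protein and 21.1 and 23.1 CPM with the deleted one.

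The 6 gamma genes that did not pass for KDM4B were Pcdhga4, Pcdhga11, Pcdhga12 and the C-type genes. Pcdhga12 stood at 54.4 and 52.7 CPM with full-length KDM4B and 53.8 and 54.2 CPM with the deleted protein (log2 0.01 ± 0.06). Pcdhgc5 stood at 28.4 and 26.1 against 27.2 and 27.4 CPM (log2 0.00 ± 0.08), Pcdhgc3 at 12.4 and 13.4 against 12.5 and 15.1 CPM (log2 0.10 ± 0.11), and Pcdhgc4 at 33.5 and 32.9 against 31.6 and 27.9 CPM (log2 -0.16 ± 0.08). With ERCC scaling Pcdhgc4 passed the test (log2 -0.35). Pcdhgb8, next to Pcdhga12, fell by 0.28 ± 0.08 from 31.6 and 28.9 CPM to 24.7 and 25.2 CPM.

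Pcdhac2 stood at 1.05 and 0.526 CPM with full-length KDM4B and at 1.18 and 1.16 CPM with the deleted protein (log2 0.56 ± 0.34, adjusted p 0.203). Summed beta RNA was 4.91 ± 0.69 and 2.10 ± 0.41 CPM. Pcdhb14 fell from 1.17 and 1.10 CPM to 0.422 and 0.562 CPM (log2 -1.20 ± 0.49, adjusted p 0.0498) by edgeR's quasi-likelihood test, but did not pass with DESeq2 (adjusted p 0.0855), without the filter on low counts (adjusted p 0.0541) or without any single KDM4B library (adjusted p 0.0961 to 0.237). Pcdhb22 stood at 0.733 and 0.842 against 0.253 and 0.381 CPM without overlap (adjusted p 0.0717). Both deleted libraries lay below both full-length ones in 18 of 21 gamma and 7 of 9 beta genes, as in 33.2% of all tested genes (66.8% in either direction). The beta count has the same limit from the filter on low counts as for KDM4A.

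The fall with deletion was larger for KDM4A than for KDM4B in all 21 tested gamma genes. A test of the difference of the 2 effects, KDM4A minus KDM4B, found 22 members, all lower, of which 21 were gamma genes and the other was Pcdhb14, where 31.1% of all tested genes differed. The median difference of the gamma genes was -1.06 on the log2 scale (all genes -0.06). The full-length groups themselves were close with TMM scaling. Between full-length KDM4A and full-length KDM4B only Pcdhga1 (log2 -0.30 ± 0.09) and Pcdhgc4 (-0.28 ± 0.08) differed, where 24.3% of all genes tested did. Both genes were named after their values were seen. With ERCC scaling the median log2 difference of these groups was -0.56 over gamma genes and -0.45 over all genes. Without any 1 of these 4 libraries 0 or 1 member differed, and with ERCC scaling 19 gamma genes were lower with KDM4A.

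Deletion of the IDR of KDM6A changed no member, where 17% of all tested genes changed, 8.65% falling and 8.30% rising. Of the 36 tested members, 3 had both deleted libraries below both full-length ones and 12 above, where 26.7% of all genes were below and 53.6% did not overlap. By edgeR's quasi-likelihood test 3 members, Pcdhgb1, Pcdhgb7 and Pcdhgc5, had an unadjusted p under 0.05, and DESeq2 also called 0. With the replicate number as a block 1 member, Pcdhgb1, fell (log2 -0.33, adjusted p 0.0348). Pcdhgb5 stood at 29.2 and 30.4 CPM with full-length KDM6A and at 32.3 and 29.7 CPM with the deleted protein (log2 0.06 ± 0.08), and Pcdhga12 at 51.6 and 49.8 against 47.0 and 50.4 CPM (log2 -0.06 ± 0.06). The C-type genes Pcdhgc3 (0.08 ± 0.11), Pcdhgc4 (0.02 ± 0.08) and Pcdhgc5 (0.17 ± 0.08) likewise showed log2 differences of 0.17 or less. With ERCC scaling 5 gamma genes fell. The median log2 change with that scaling was -0.19 over all tested gamma genes and -0.21 over all genes.

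Deletion of the IDR of KDM6B went with small rises of 5 A- and B-type gamma genes under TMM scaling, where 20.6% of all tested genes changed and 9.89% rose. With ERCC scaling none rose and 8 members fell, where the median log2 change of all genes was -0.38. Pcdhga3 rose from 6.95 ± 0.19 to 10.1 ± 0.12 CPM (log2 0.54 ± 0.11, adjusted p 1.81e-04) and passed in every fit that left out 1 KDM6B library, but not with ERCC scaling. Pcdhgb7 (log2 0.45), Pcdhgb1 (0.45), Pcdhga1 (0.33) and Pcdhga6 (0.61) also rose. Deleted and full-length libraries did not overlap in 13 gamma genes with the deleted ones higher and 4 with them lower, where 28.6% of all genes were lower and 58.0% did not overlap. The count of members that rose fell to 1 without IDR-deleted KDM6B library 1 and to 3 without either full-length KDM6B library.

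The most abundant gamma genes did not pass for KDM6B with TMM scaling. Pcdhga12 stood at 43.3 and 43.7 CPM with full-length KDM6B and 39.7 and 41.4 CPM with the deleted protein, and Pcdhgb5 at 9.41 and 8.81 against 9.76 and 9.75 CPM. Pcdhgb8 stood at 18.1 and 16.8 against 18.1 and 18.6 CPM. Pcdhgc3, Pcdhgc4 and Pcdhgc5 had log2 differences of 0.01, -0.18 and -0.11. With ERCC scaling all 6 were called as falls: Pcdhga12 (-0.48), Pcdhgb5 (-0.28), Pcdhgb8 (-0.31), Pcdhgc3 (-0.36), Pcdhgc4 (-0.56) and Pcdhgc5 (-0.49). The median log2 change with that scaling was -0.38 over all genes and -0.14 over gamma genes. Pcdhgb5, Pcdhgb8 and Pcdhgc3 thus fell less than the median gene.

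Pcdhac2 stood at 1.37 and 1.06 CPM with full-length KDM6B and 2.00 and 1.73 CPM with the deleted protein (log2 0.62 ± 0.31, adjusted p 0.166). The effects of KDM6A and KDM6B deletion differed in 2 members, Pcdhga3 (log2 difference -0.62 ± 0.14) and Pcdhgb1 (-0.79 ± 0.19), where 21.8% of all tested genes differed; with ERCC scaling 5 differed, 3 of them in the other direction, and with the replicate block 4, 1 of them in the other direction.

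The libraries labelled KDM6B and KDM6A differed in the level of the gamma cluster. ERCC RNAs took 1.14% and 1.22% of the reads with full-length KDM6B and 0.691% and 0.725% with full-length KDM6A. Deviations of same-numbered libraries correlated at -0.0026 to 0.034 in pairs of groups with KDM6B and at 0.103 to 0.172 in the others. Whether the KDM6B libraries were handled apart is not in the labels, so construct and handling cannot be told apart here. Between the full-length proteins, 23 members were lower with KDM6B and none was higher, where 50.7% of all tested genes differed, 25.7% lower and 25.0% higher; the contrast was added after the group levels were seen. They were 20 of the 21 gamma genes and, among beta genes, Pcdhb14, Pcdhb16 and Pcdhb17, with a gamma median of -1.33 on the log2 scale (all genes -0.08). With ERCC scaling 32 members were lower, the gamma median was -2.25 and that of all genes -0.999, and rises made up 3.59% of the genes called instead of 49.4%. Pcdhb17 had 20 reads with full-length KDM6A and 0 with full-length KDM6B (log2 -6.46 ± 1.69), and Pcdhb16 had 10 and 0 (-5.51 ± 2.08). Both stand at the lower limit of the counts. Mates were counted singly, so the fragments can be fewer than the reads. Pcdhgc3 alone among gamma genes did not pass (log2 -0.14 ± 0.11), and Pcdhga12 fell least of the A and B types (-0.22 ± 0.06).

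Where in the cluster the changes lie was described by position, without a test, since neighbouring genes share transcripts. Across the 21 tested gamma genes, Pearson's r between distance from the first gene and log2 fold change was 0.44 for KDM4A, 0.61 for KDM4B, 0.31 for KDM6A and -0.48 for KDM6B. Spearman's rho was 0.30, 0.59, 0.31 and -0.55. The order was not a steady one. Among gamma genes the largest fall for KDM4B, of Pcdhgb6, lay at 80.3 kb and the largest for KDM4A, of Pcdhga8, at 63.9 kb, while Pcdhgb2 at 28.0 kb fell by only 0.99 for KDM4A. Of the 5 genes that rose for KDM6B with TMM scaling, Pcdhgb7 lay at 89.8 kb.

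**Figure D4:**
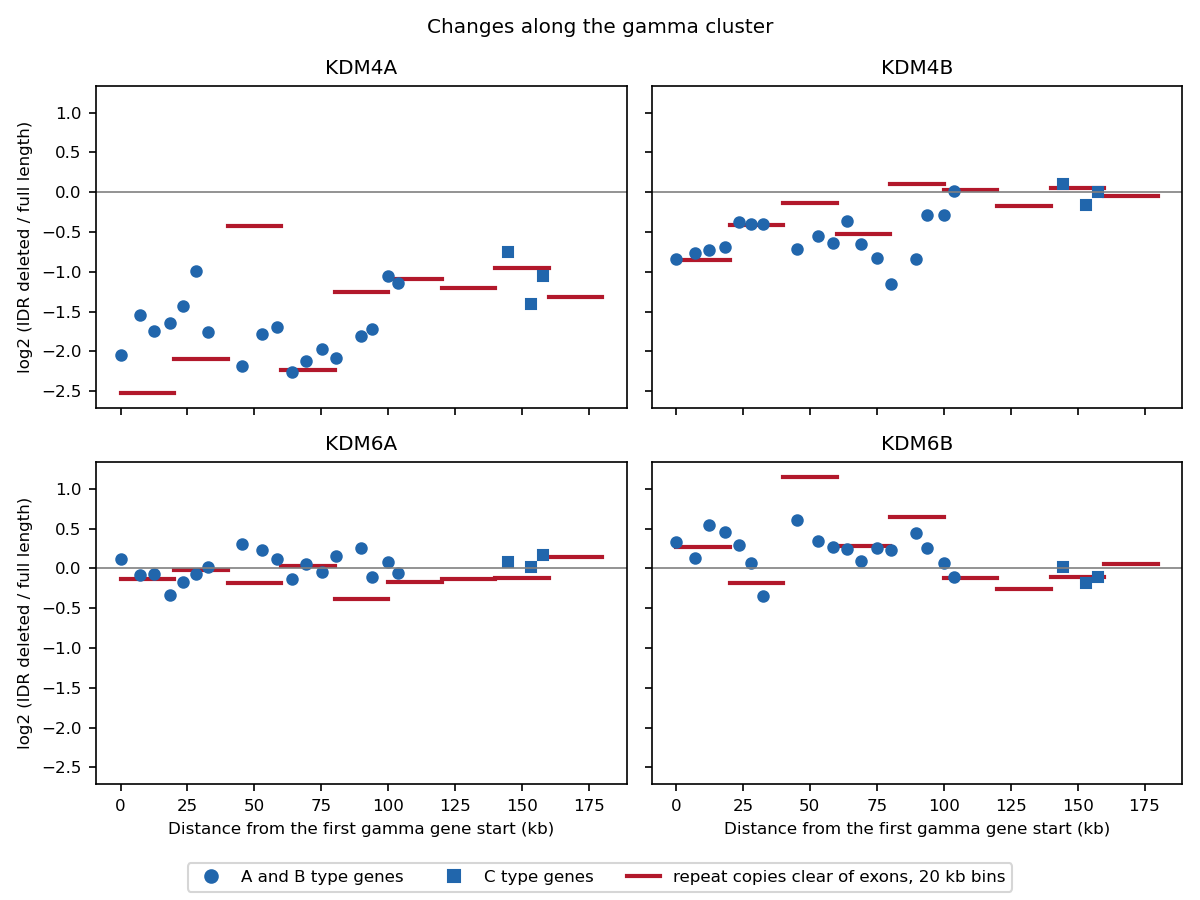
Log2 ratio of IDR-deleted to full-length libraries against distance in kb from the start of the first gamma gene. Circles are A- and B-type genes and squares C-type genes. Red lines are repeat copies clear of exons in bins of 20 kb, scaled to all repeat reads. For KDM4B the 17 A- and B-type genes upstream of Pcdhga12 are below 0 and Pcdhga12 and the C-type genes lie between -0.16 and 0.10, while for KDM4A all are below 0; the gamma median for KDM6B is 0.24 with the TMM scaling drawn and -0.14 with ERCC scaling.

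Repeat copies inside the clusters gave a measure from the second table, of RNA between exons. In the gamma cluster, 315 copies clear of every annotated exon held 97696 reads. Their level was 216 and 223 RPM (scaled to all repeat reads of the library) with full-length KDM4A and 93.0 and 92.7 with the deleted protein, a log2 difference of -1.24. The gamma difference was -0.14 for KDM4B, -0.11 for KDM6A and 0.01 for KDM6B. Repeat values are scaled to repeat reads and gene values to gene reads, so their sizes are not on one scale. With gene scaling the mean difference over the whole interval and all demethylases was -0.45 instead of -0.31. Copies in the alpha cluster, with 3034 reads, differed by -0.72, -0.66, -0.15 and 0.24 for KDM4A, KDM4B, KDM6A and KDM6B. Those in the beta cluster, with 4009 reads, differed by -0.75, -0.86, 0.21 and 0.09. In the first 20 kb of the gamma cluster the KDM4A difference was -2.53 and the KDM4B difference -0.85, while between 100 and 120 kb they were -1.09 and 0.03. There was no steady trend between these: the 9 bins ran from -2.53 to -0.43 for KDM4A, with -0.43 between 40 and 60 kb beside -2.24 between 60 and 80 kb, and from -0.85 to 0.10 for KDM4B.

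Averaged over the 4 demethylases, reads on copies across the whole interval differed by -0.31 on the log2 scale between deleted and full-length libraries (two-sided exact permutation test within demethylase, p 0.0849, smallest possible 0.00154). For the gamma copies alone the mean was -0.37 (exact p 0.0154, adjusted over the 4 intervals 0.0617). Without KDM4A the whole-interval mean was -0.05 (exact p 0.509). The repeat reads overlap introns of protocadherin transcripts, so they and the gene counts are not separate loci.

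Of 13 other tested genes inside the interval, 8 fell and 1 rose for KDM4A, where 25.9% of all tested genes fell and 24.6% rose. For KDM4B 4 fell and none rose, where 17.6% fell and 18.6% rose. With ERCC scaling 11 fell and none rose for KDM4A. Under that scaling the median log2 change of all genes was -0.70, and rises made up 7.61% of the genes called. The share of all tested genes called with it is not given here. ENSMUSG00000118501, an entry without a symbol, fell from 4.75 ± 0.20 to 0.57 ± 0.07 CPM (log2 -3.06). 3222401L13Rik, whose annotated span ends just upstream of the gamma cluster, fell from 14.4 ± 0.88 to 5.78 ± 0.84 CPM for KDM4A (log2 -1.33). Gm26672, annotated on the opposite strand inside the gamma cluster, fell from 6.51 ± 1.67 to 1.86 ± 0.03 CPM, and without strand its reads cannot be told from those of the gamma genes. Taf7, which encodes a TFIID subunit and lies between the beta and gamma clusters, rose from 99.4 ± 1.46 to 115 ± 3.41 CPM (log2 0.21, but -0.44 with ERCC scaling), and Diaph1, just past the gamma cluster on the other strand, from 472 ± 4.93 to 572 ± 1.59 CPM (log2 0.28, but -0.37 with ERCC scaling). Taf7 and Diaph1 were chosen after their values were seen. Of 50 tested genes within 1000 kb outside the clusters, 14 rose and 11 fell for KDM4A with TMM scaling, near the shares of all tested genes. With ERCC scaling 3 rose and 31 fell, which has the same limit. The smallest p were those of Ik (log2 0.86), Psd2 (1.14) and 1700086O06Rik (-1.45).

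Genes known to act on the clusters were also measured. Over all tested genes 24.6% rose and 25.9% fell for KDM4A with TMM scaling, and 18.6% rose and 17.6% fell for KDM4B. With ERCC scaling rises made up 7.61% of all genes called for KDM4A and 25.1% for KDM4B. The share of all tested genes called with ERCC scaling is not given. Of 12 genes for CTCF, cohesin and its partners, 7 rose and 3 fell for KDM4A with TMM scaling, and none rose and 10 fell with ERCC scaling. Smc3, a core cohesin subunit, rose from 310 ± 2.08 to 490 ± 27.5 CPM (log2 0.66, but 0.01 with ERCC scaling). Zfp143 (log2 0.72, but 0.06 with ERCC scaling) and Rad21 (0.50, but -0.16) also rose with TMM scaling. For KDM4B 5 rose and 5 fell (1 and 6 with ERCC scaling), among them Zfp143 (log2 0.73), Ctcf (-0.43) and Mau2 (-0.29). Of 16 genes of silencing factors, 8 rose and 5 fell for KDM4A, and 1 rose and 10 fell for KDM4B; with ERCC scaling 1 rose and 13 fell, and none rose and 14 fell. Nsd1, a methyltransferase for H3K36, fell from 1389 ± 8.18 to 751.9 ± 3.43 CPM for KDM4A and from 1530.3 ± 20.3 to 1152 ± 0.294 CPM for KDM4B. Dnmt1, the maintenance DNA methyltransferase, rose from 631 ± 18.1 to 911 ± 5.16 CPM for KDM4A (log2 0.53, but -0.12 with ERCC scaling), and Atf7ip, a partner of SETDB1, fell from 343 ± 4.46 to 220 ± 1.28 CPM. For KDM4B, Atf7ip fell from 478 ± 4.90 to 216 ± 0.0954 CPM and Trim28 from 549 ± 15.5 to 443 ± 18.4 CPM.

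Of 10 tested protocadherins outside the clusters, 2 rose and none fell for KDM4A: Pcdh1 (4.83 ± 0.22 to 11.04 ± 1.61 CPM, log2 1.20) and Pcdh8 (0.432 ± 0.02 to 1.35 ± 0.11 CPM). Both counts lay below the shares of all tested genes, 24.6% rising and 25.9% falling. With ERCC scaling Pcdh1 still rose (log2 0.54), Pcdh8 did not pass (0.98) and Pcdh19 fell (-0.73). For KDM4B, Pcdh19 and Pcdh9 fell, where 17.6% of all tested genes did.

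Markers of other cell types moved in several groups. With TMM scaling, 24.6% of all tested genes rose and 25.9% fell for KDM4A. The shares were 18.6% and 17.6% for KDM4B, and 9.89% and 10.7% for KDM6B. Of 13 tested neuron markers, 4 rose and 3 fell for KDM4A, 2 rose and 7 fell for KDM4B, and 7 rose and none fell for KDM6B. With ERCC scaling the counts were 2 and 8, 1 and 8, and 5 and 1. Rises then made up 7.61%, 25.1% and 4.74% of all genes called, and the share of tested genes called is not given. The summed level of the neuron markers was 78.0 to 78.1 CPM with full-length and 78.2 to 79.5 CPM with IDR-deleted KDM4A, and the ranges lay side by side. It was 123 to 126 against 68.6 to 70.9 CPM for KDM4B and 55.4 to 57.9 against 111 to 113 CPM for KDM6B, and its part in the gamma results was not tested. Stmn2 led the changes for KDM4B (50.4 ± 0.59 to 22.5 ± 1.31 CPM) and KDM6B (16.2 ± 0.20 to 43.7 ± 0.49 CPM). Of 7 tested neural progenitor markers 3 rose for KDM4A, 2 fell for KDM4B and 2 rose for KDM6B, with none the other way. With ERCC scaling none rose, and 2, 2 and 1 fell. They summed to 102 to 104 against 112 to 120 CPM for KDM4A and 100 to 103 against 83.1 to 84.1 CPM for KDM4B. For KDM6B the sums were 115 to 124 against 138 to 142 CPM, and their part was not tested. The fibroblast markers summed to 28.0 to 31.4 against 76.6 to 84.4 CPM for KDM4A, led by Mmp2 (13.6 ± 1.01 to 49.5 ± 4.38 CPM), with Lum, Dcn and Postn near 0, and their part was not tested. For KDM4B they summed to 18.1 to 19.6 against 36.7 to 39.2 CPM, with Mmp2 (log2 1.39) and Pdgfrb (0.77) higher. The sums were 55.9 to 56.1 against 64.5 to 64.9 CPM for KDM6B, where no gamma gene fell with TMM scaling. For KDM6A they were 30.9 to 32.5 against 21.6 to 24.7 CPM. Of 9 fibroblast markers 5 were tested: 3 rose for KDM4A, 2 for KDM4B and 2 for KDM6B, and none fell. With ERCC scaling 2, 2 and 1 rose, and 1 fell for KDM6B. Col1a2 did not pass (log2 -0.19 for KDM4A and -0.73 for KDM4B). Naive pluripotency markers summed to 2529 to 2661 against 2291 to 2373 CPM for KDM4A (3 of 10 rose and 6 fell, or 1 and 8 with ERCC scaling) and to 2431 to 2538 against 1935 to 2026 CPM for KDM4B (2 rose and 7 fell, or 1 and 8), without overlap, and their part was not tested either. Tbx3 fell in both (log2 -1.09 and -0.57).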

How the data were processed

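Per the file headers, the authors counted reads with featureCounts 2.0.3 on HISAT2 alignments to GRCm39 with spike-in sequences; the deposited tables hold raw counts per gene and per repeat copy. Mapping quality was at least 30, strand was ignored, mates were counted singly and reads matching several features stayed unassigned. Symbols came from GENCODE M21 and matched 51948 of 56941 gene identifiers.

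The 16 libraries (8 groups of 2, by label) were fitted once in edgeR 4.0.16 (R 4.3.3) over all genes, without the ERCC RNAs: filterByExpr (minimum count 10), TMM, robust quasi-likelihood fit, Benjamini-Hochberg at 0.05. Standard errors were derived from the log2 fold change and F. The code was tested on simulated data. No repeat copy in the clusters lies outside annotated gene spans, so copies clear of exons replaced the planned ones.

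Members and lists were chosen with earlier results of these data known. Genes were named by rule: the 3 most abundant tested members of each cluster and all C types in every library, then up to 5 members per direction and contrast, 4 per difference. From other lists, some of the up to 3 genes per contrast with the smallest p are printed, mainly for KDM4A and KDM4B, a choice made after their values were seen. Alternatives were ERCC scaling, other size factors, filters, DESeq2 1.42.0, a replicate block, fits of fewer libraries and leaving out each library. Precision rests on read number: intervals cover only these libraries. No sequence is printed.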

Additional observations from a re-analysis of the deposited data

Results flagged for a closer look

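Whether IDR deletion acted unequally in 2 demethylases of a pair was tested in 1 edgeR quasi-likelihood fit of all genes. For KDM4A against KDM4B, the 4 members with the smallest p were Pcdhga12 (log2 difference -1.15, adjusted p 1.68e-13), Pcdhga8 (-1.89), Pcdhgb5 (-1.47) and Pcdhgc4 (-1.24), all lower for KDM4A. Each was lower in both IDR-deleted KDM4A libraries than in both full-length ones. Between KDM6A and KDM6B the 2 that passed were Pcdhga3 (-0.62, adjusted p 0.00144) and Pcdhgb1 (-0.79, adjusted p 0.0017).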

How the results depend on the processing

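The KDM4A, KDM4B, 8-group and KDM4A-against-KDM4B counts stayed within 1.5 times of their value under every alternative run. For KDM6A, 5 members fell with ERCC scaling, and 1 with a filter at a mean of 0.5 CPM, with a replicate block and with only the libraries compared. For KDM6B, 8 members fell with ERCC scaling and 2 rose with only the libraries compared. Between KDM6A and KDM6B, 5 members differed with ERCC scaling (3 higher, 2 lower) and 4 with the replicate block. Full-length KDM4A against KDM4B gave 19 falls with ERCC scaling, and 0 or 1 without any 1 library of full-length KDM4A or KDM4B.

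Leaving out 1 library gave 23 to 24 members for KDM4A, 12 to 16 for KDM4B, 0 for KDM6A, 1 to 5 for KDM6B, 24 to 28 for the 8 groups, 21 to 23 for KDM4A against KDM4B, 2 to 3 for KDM6A against KDM6B, and a repeat mean of -0.33 to -0.30. The summed gamma log2 difference was then -1.53 to -1.51, -0.42 to -0.41, -0.0015 to 0.04 and 0.06 to 0.09 for KDM4A, KDM4B, KDM6A and KDM6B.

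The summed gamma difference was -1.71, -0.37 and -0.011 for KDM4A, KDM4B and KDM6A with raw totals, -2.18, -0.60, -0.19 and -0.31 for the 4 with ERCC scaling, and -1.59, -0.49 and 0.12 for KDM4A, KDM4B and KDM6B without the most abundant gene. With ERCC scaling KDM6B values reversed, the last 3 past the threshold, for Pcdhga1 (-0.052), Pcdhgb5 (-0.28), Pcdhgb8 (-0.31) and Pcdhgc3 (-0.36), and the summed alpha difference for KDM4A became -0.035 (-0.28 without its most abundant gene). The repeat mean reached -0.45 (exact p 0.0231) with gene scaling and -0.48 without KDM6B (exact p 0.00926, the smallest possible with those libraries). It was -0.37 for the gamma interval and -0.39 without its last 40 kb, the last 2 chosen after seeing the data. ERCC scaling of the other gene lists was also added after seeing the data. Counts with ERCC scaling stand without the share of all genes called under it. The causes were not tested.

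Deviations of same-numbered libraries correlated at 0.103 to 0.172 in all 15 pairs of groups without KDM6B and at -0.0026 to 0.034 in the 13 with KDM6B. The labels do not state a pairing, and the main fit used none, although the 15 pairs without KDM6B all correlated. What same-numbered libraries of those groups share was not tested. With the replicate block the counts were 23, 16, 1 and 7 for KDM4A, KDM4B, KDM6A and KDM6B.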
